A study of Mus musculus with 14 samples.

Results

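The genes Havcr1, Sulf2, Scp2, Slco4a1, Masp2, Lima1, Mctp1 and Sgk3 are described here in central and effector regulatory T cells (cTregs and eTregs). They were selected on measured values, for a large difference between Atg14 knockout and control eTregs, and no cutoff was set for what counts as large. Each symbol has 1 row on the array, so the 8 genes make up 8 of the 22203 transcript clusters that carry a gene symbol. A transcript cluster is the array's unit for a gene, and some genes have more than 1, since the clusters carry 21902 symbols. The values that chose them are given as a description without a test, and tests are given for cTregs, whose arrays took no part in the choice. The limma tests there still take their spread from all 14 arrays, eTregs included.

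The measurement was gene expression on 14 Clariom S mouse arrays, each hybridised with RNA of sorted cells. These cells came from mixed bone marrow chimeras. CD45.2+ marrow of Foxp3 Cre Atg14 fl/fl mice (labelled KO) or Foxp3 Cre Atg14 +/fl mice (control, labelled heterozygous) was mixed 1:1 with CD45.1+ wild-type marrow and given to sublethally irradiated Rag1-/- hosts, which make no T or B cells of their own but keep other blood cells. Marrow had 6 to 8 weeks to rebuild the blood, and the age of the animals on the arrays is not given in the sources used here. The controls thus also carry the Foxp3-driven Cre, which acts in Foxp3+ cells, and 1 floxed Atg14 allele. The cells were sorted as CD45.2+ CD4+ Foxp3-YFP+, so cells of the CD45.1+ wild-type donor were gated out. They were either CD44 low CD62L high (cTregs, which circulate through lymphoid organs) or CD44 high CD62L low (eTregs, the activated subset). The groups held 3 KO cTreg, 4 control cTreg, 3 KO eTreg and 4 control eTreg arrays. The series text names spleen with peripheral lymph nodes as the source, and the methods name spleen.

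Atg14 is a subunit of the autophagy form of the lipid kinase complex around Vps34, which makes phosphatidylinositol 3-phosphate (PI3P) on membranes. The 8 genes do not form 1 pathway. Havcr1 (TIM-1) is a cell surface receptor for phosphatidylserine, and Sulf2 is a secreted enzyme that removes sulfate groups from heparan sulfate outside the cell. Masp2 is a serine protease of the lectin pathway of complement, known best as a product of the liver, and Slco4a1 is a transporter of organic anions, thyroid hormone among them. Lima1 (EPLIN) binds and bundles actin filaments, Scp2 encodes a peroxisomal thiolase and a sterol carrier, Mctp1 is a calcium-binding membrane protein with C2 domains, and Sgk3 is a kinase whose PX domain binds PI3P.

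Array medians lay between 8.77 and 8.90 on the log2 scale, and arrays correlated with each other at r = 0.962 to 0.994 over all transcript clusters. The median of the background control probes lay between 6.00 and 6.30 and is used below as the level of background. Foxp3, the factor that defines Tregs, read 12.78 to 13.12 in KO eTregs and 12.76 to 12.92 in control eTregs. None of the 9 Treg genes listed was called in either direction between the genotypes of eTregs. Atg14 was not lower in the arrays labelled KO: it read 9.24, 9.33 and 9.29 in KO cTregs against 9.26, 8.96, 8.64 and 8.89 in control cTregs, and 9.15, 9.004 and 9.32 in KO eTregs against 8.92, 9.01, 8.77 and 8.64 in control eTregs. The KO minus control difference of Atg14 was 0.35 in cTregs and 0.32 in eTregs, with overlapping groups in both subsets. Where the Atg14 probes lie relative to the floxed part of the gene is not given in the sources used here, so the array reading does not check the labels. The study checked Atg14 deletion by quantitative PCR in Tregs sorted from Foxp3 Cre Atg14 fl/fl mice, not on these arrays. The arrays are called KO below as they are labelled.

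RefSeq promoter windows on GRCm38.p6 matched 7 of the 8 genes, and Sgk3 has no entry. The 250 bases before the listed start are shown for Masp2, the gene that differed between genotypes in both subsets, and for Lima1 and Mctp1. Lima1 and Mctp1 have a single listed start and the largest eTreg differences in opposite directions among such genes. All of these starts lie inside the RefSeq gene spans. The spans begin at 148594622 for Masp2, 76382362 for Mctp1 and, on the minus strand, 99875477 for Lima1. The windows are thus not the bases before the outermost start of each gene.
Masp2, chr4:148602294-148602543, plus strand: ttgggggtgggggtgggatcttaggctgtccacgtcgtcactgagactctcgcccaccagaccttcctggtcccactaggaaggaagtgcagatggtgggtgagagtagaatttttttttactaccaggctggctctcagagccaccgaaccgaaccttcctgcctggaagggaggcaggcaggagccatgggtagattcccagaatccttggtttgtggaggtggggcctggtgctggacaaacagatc
Lima1, chr15:99820150-99820399, minus strand: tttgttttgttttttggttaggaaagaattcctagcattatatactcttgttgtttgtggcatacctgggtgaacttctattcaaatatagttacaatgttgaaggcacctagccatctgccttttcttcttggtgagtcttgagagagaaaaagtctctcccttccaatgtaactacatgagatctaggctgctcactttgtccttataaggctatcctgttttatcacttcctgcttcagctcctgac
Mctp1, chr13:76579347-76579596, plus strand: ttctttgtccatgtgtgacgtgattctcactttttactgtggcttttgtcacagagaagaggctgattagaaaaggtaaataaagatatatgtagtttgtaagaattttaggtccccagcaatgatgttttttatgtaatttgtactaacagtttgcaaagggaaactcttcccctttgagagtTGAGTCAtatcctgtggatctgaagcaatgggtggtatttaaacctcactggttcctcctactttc
Capitals mark a match to 1 of 4 motifs searched on both strands: AP-1 (TGANTCA), E-box (CACGTG), forkhead (GTAAACA) and ETS (CCGGAAG). The windows of these genes number 11. An AP-1 match was found in 1 of them, that of Mctp1, beginning 66 bases before the listed start inside the gene. The other 3 motifs were found in none. Among all 32851 windows of this length, 6.75% held the AP-1 letters, 6.02% the E-box, 3.17% the forkhead and 6.91% the ETS letters.

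**Figure D1:**
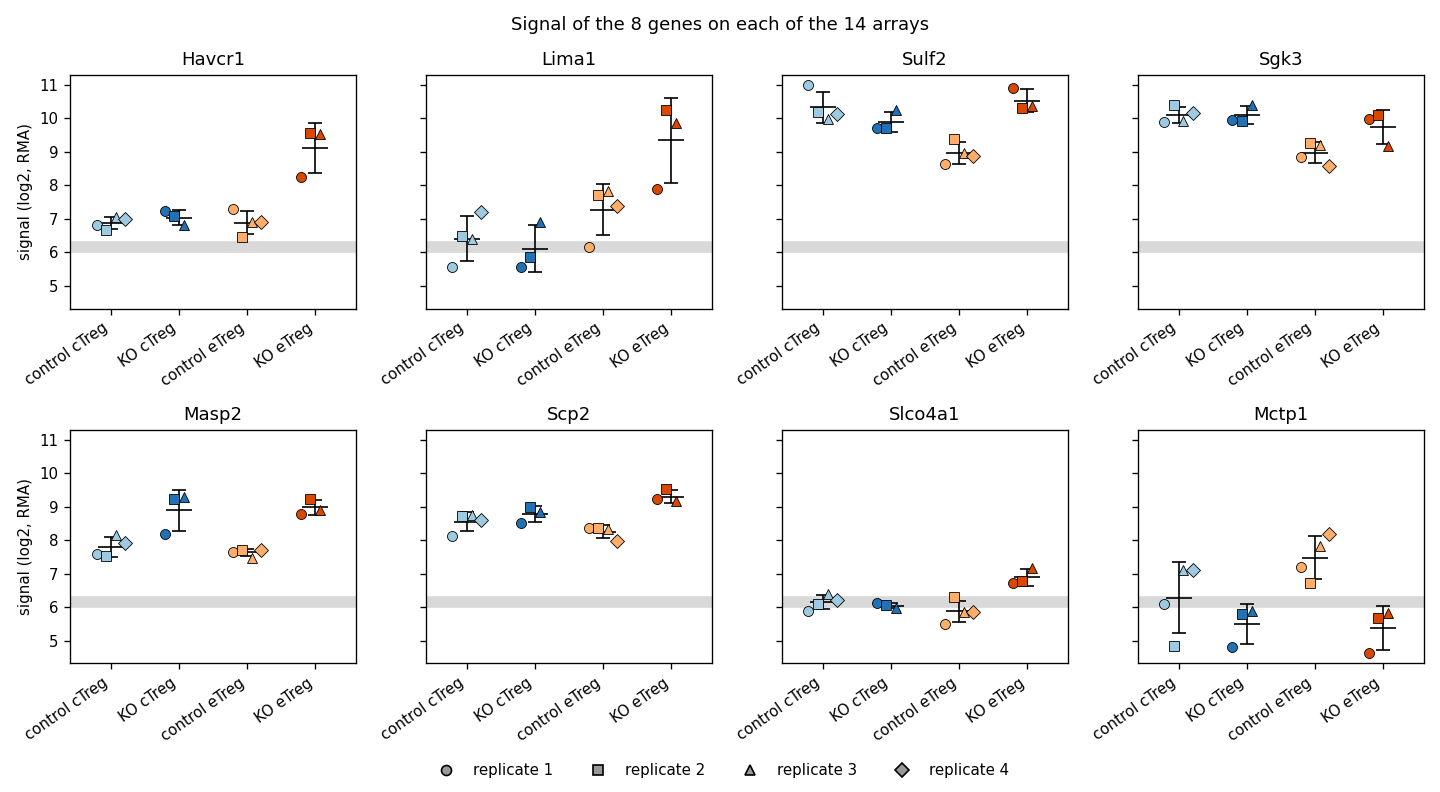
Signal of the 8 genes on each array (y axis, log2 after RMA) by group (x axis), with 1 point per array, the symbol giving the replicate number, and a bar for the mean and SD. The grey band spans the background control probes, 6.00 to 6.30. KO eTregs stand above the other 3 groups for Havcr1, Lima1, Scp2 and Slco4a1, while both KO groups stand above both control groups for Masp2.

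The surface receptor and the actin-binding protein had the largest differences upward. Havcr1 read 8.25, 9.56 and 9.53 in KO eTregs and 7.28, 6.44, 6.91 and 6.91 in control eTregs. It read 7.23, 7.08 and 6.80 in KO cTregs and 6.81, 6.66, 7.04 and 7.004 in control cTregs. KO eTregs thus lay above every other array, and the other 3 groups overlapped. The KO minus control difference in eTregs was 2.23 log2 units, a 4.69-fold difference and the 3rd in size of all transcript clusters. In controls the eTreg and cTreg means of Havcr1 differed by 0.01.

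Lima1 read 7.88, 10.26 and 9.87 in KO eTregs and 6.16, 7.70, 7.83 and 7.38 in control eTregs. It read 5.55, 5.86 and 6.90 in KO cTregs and 5.56, 6.47, 6.38 and 7.19 in control cTregs. The order of the group means was KO cTreg, control cTreg, control eTreg and KO eTreg, and neighbours in that order overlapped except for the last step. KO eTreg 1 exceeded the highest control eTreg by little, while the other KO eTregs stood far above it. The difference in eTregs was 2.07 log2 units, and it was 0.61 with KO eTreg 2 and KO eTreg 3 left out.

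Sulf2 and Sgk3 had another shape: control eTregs were the low group, and the KO eTreg mean lay nearer the cTreg means than the control eTreg mean. Sulf2 read 10.91, 10.30 and 10.36 in KO eTregs and 8.62, 9.38, 8.96 and 8.88 in control eTregs. In KO cTregs it read 9.70, 9.71 and 10.24, and in control cTregs 10.98, 10.19, 9.98 and 10.13. No control eTreg reached any array of the other 3 groups, and those 3 groups overlapped their neighbours in order of mean. Among controls Sulf2 was 1.36 log2 units lower in eTregs than in cTregs, whereas KO eTregs exceeded control cTregs by 0.20. Every KO eTreg was above every KO cTreg for Sulf2, with a difference of means of 0.64.

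Sgk3 read 9.98, 10.08 and 9.17 in KO eTregs and 8.84, 9.27, 9.20 and 8.58 in control eTregs. It read 9.95, 9.93 and 10.40 in KO cTregs and 9.90, 10.40, 9.91 and 10.16 in control cTregs. KO eTreg 3 lay within the control eTreg range, so Sgk3 was the 1 of the 8 genes whose eTreg groups overlapped. This array was also below every cTreg array. The eTreg difference between genotypes was 0.77, and among controls eTregs were 1.12 lower than cTregs without overlap.

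Masp2 went against a shift mainly in eTregs. It read 8.79, 9.22 and 8.91 in KO eTregs and 7.65, 7.70, 7.48 and 7.71 in control eTregs. It read 8.19, 9.22 and 9.28 in KO cTregs and 7.58, 7.52, 8.15 and 7.93 in control cTregs. In each subset every KO array was above every control array, although KO cTreg 1 cleared the highest control cTreg by little. The KO minus control difference was 1.34 in eTregs and 1.10 in cTregs.

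Scp2 and Slco4a1 were also higher in KO eTregs without overlap. Scp2 read 9.21, 9.53 and 9.16 in KO eTregs and 8.35, 8.37, 8.32 and 7.98 in control eTregs, a difference of 1.05. In KO cTregs it read 8.53, 8.98 and 8.84 and in control cTregs 8.13, 8.73, 8.74 and 8.61, with the 2 groups overlapping. Slco4a1 was close to background: it read 6.71, 6.79 and 7.18 in KO eTregs and 5.50, 6.29, 5.84 and 5.86 in control eTregs, a fitted difference of 1.02 that rests on control arrays mostly at or below background. The KO cTreg values of 6.11, 6.06 and 5.97 and the control cTreg values of 5.88, 6.09, 6.40 and 6.22 overlapped. Slco4a1 exceeded its array's background median on 3 of 3 KO eTreg arrays, 1 of 4 control eTreg arrays, 0 of 3 KO cTreg arrays and 2 of 4 control cTreg arrays.

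Mctp1 was the only one of the 8 genes that was lower in KO eTregs. It read 4.63, 5.66 and 5.84 in KO eTregs and 7.19, 6.73, 7.83 and 8.17 in control eTregs. It read 4.81, 5.80 and 5.87 in KO cTregs and 6.10, 4.85, 7.10 and 7.10 in control cTregs. All 6 KO arrays were below background, so their level is only bounded. The fitted eTreg difference was -2.10, and with KO arrays set no lower than background control eTregs were at least 2.60-fold higher. Control cTregs spanned most of the scale of the gene, with 2 of 4 arrays above background.

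**Figure D2:**
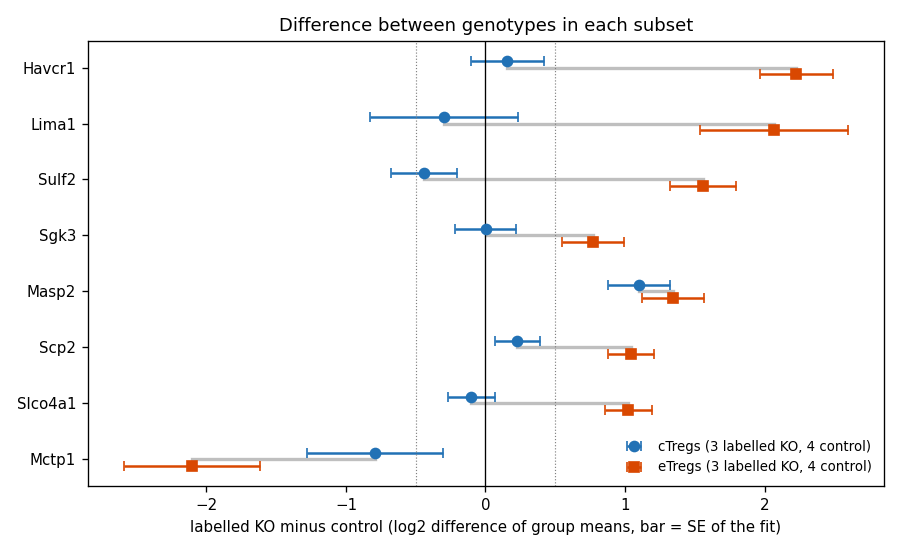
KO minus control difference (x axis, log2) of each gene (y axis) in cTregs (blue circles) and eTregs (orange squares), with the SE of the fit as bars and dotted lines at 0.5 either side of 0. Masp2 is the gene whose 2 points lie close together, at 1.10 and 1.34.

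In cTregs, where no array was used to choose the genes, Masp2 was the only one of the 8 that passed the study threshold, a log2 difference of at least 0.5 with unadjusted P under 0.05. By limma, which fitted the 4 group means over all 14 arrays, Masp2 was 1.10 log2 units higher in KO cTregs (SE 0.22, 95% confidence interval 0.63 to 1.57), a 2.15-fold difference, with unadjusted P = 0.000147 in the fit and p = 0.0286 in an exact permutation test of the 7 cTreg arrays. This two-sided exact p, over 35 splits, is the smallest that 3 against 4 arrays can give. The spread in the limma fit also drew on the eTreg arrays that chose the genes, whereas the exact test used the cTreg arrays alone. A limma fit of the 2 cTreg groups alone kept the Masp2 call at the study threshold, and it did not pass correction either. Same-numbered cTreg and eTreg arrays may share a mouse, so neither test is known to be independent of the choice. The adjusted P by limma with Benjamini-Hochberg adjustment over all 22203 transcript clusters was 0.218, so it did not pass correction. It was 0.00400 with KO cTreg 1 left out and 0.0202 with array weights. The change was higher in KO in 3 of 3 arrays relative to all 4 controls. Masp2 ranked 10th in size in cTregs.

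The study threshold thus called 1 of the 8 genes in cTregs, higher in KO. Over all transcript clusters it called 0.576%, with 0.194% higher and 0.383% lower in KO. With adjusted P it called 0 of the 8 against 0.045% of all, and 1 of the 8 had an unadjusted P under 0.05 in limma, where 4.01% of all did. Arrays of the 2 cTreg groups did not overlap for 1 of the 8 genes, against 5.05% of all. Among the other genes Sulf2 differed by -0.44 in cTregs (P = 0.0816 by limma, exact permutation p = 0.257). The fitted cTreg difference of Mctp1 was -0.79 (P = 0.124 by limma, exact permutation p = 0.20), but its KO cTreg arrays are all below background, and with them set no lower than background control cTregs were at least 1.07-fold higher. For Sulf2 the 95% interval ran from -0.94 to 0.06. Sgk3 differed by 0.00047 with P = 0.998 by limma and an exact permutation p of 1. Adjusted P was 0.9999 for each of these 7 in limma with Benjamini-Hochberg adjustment. The median of the 8 cTreg differences was -0.05 against 0.02 over all transcript clusters.

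In eTregs, whose values chose the genes, 8 of the 8 passed the study threshold, where 2.72% of all transcript clusters did. With adjusted P it was 5 of the 8, beside 0.117% of all, and the arrays did not overlap for 7 of the 8, beside 6.85% of all. These counts follow from how the genes were chosen. Without KO eTreg 1 the adjusted threshold called 452 transcript clusters in place of 26, and the study threshold 1104 in place of 604. Their differences ranked from the 3rd to the 250th in size. The pooled SD within groups lay at the 75.4th percentile of all transcript clusters for Scp2, the least variable of the 8, and at the 99.9th for Lima1.

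Sorted cells can carry RNA of other cells, so marker lists were read on the same arrays. Fewer cells of a type and less RNA per cell cannot be told apart in such samples. The summed signal of 17 monocyte and macrophage genes was 12.78, 14.95 and 14.93 (log2) in KO eTregs and 13.21 to 13.56 in control eTregs. In cTregs it ran from 12.24 to 12.56. KO eTreg 2 and KO eTreg 3 thus stood above all control eTregs and KO eTreg 1 below all of them. Of the 17 genes 10 were called higher in KO eTregs at the study threshold and none lower, with a median difference of 0.90. Among the defining markers, Csf1r, the receptor for macrophage colony-stimulating factor, read 8.99, 11.90 and 11.69 in KO eTregs and 9.12 to 9.70 in control eTregs. Adgre1, another macrophage surface marker, read 8.84, 9.89 and 9.91 against 8.50 to 8.75, and Cd68 read 9.36, 11.16 and 11.55 against 9.54 to 9.82. No gene of the list was at or below background on any eTreg array.

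The place of the single KO eTreg arrays against the control eTregs is given for both sets of genes. On KO eTreg 1 10 of the 17 monocyte and macrophage genes were below all 4 control eTregs and 1 was above. On the same array 7 of the 8 genes were above all control eTregs and Mctp1 was below all of them, where 22.4% of all transcript clusters were above and 19.9% below. The choice of the 8 genes favours such a place, so nothing is read from their count. On KO eTreg 2, 16 of the 17 marker genes and 7 of the 8 genes were above all controls, and on KO eTreg 3 the counts were 16 and 6. Of all transcript clusters, 23.9% were above all control eTregs and 29.9% below on KO eTreg 2. The shares were 19.1% and 27.9% on KO eTreg 3. Against the control eTreg mean, KO eTreg 1 was higher by 1.95 for Sulf2, 1.36 for Havcr1, 1.16 for Masp2, 1.01 for Sgk3, 0.96 for Scp2, 0.84 for Slco4a1 and 0.61 for Lima1, and lower for Mctp1 at -2.85. On KO eTreg 2 and KO eTreg 3, the arrays with the higher macrophage signal, these differences were larger for Havcr1 (2.67 and 2.65), Lima1 (2.99 and 2.60), Masp2 (1.58 and 1.28) and Slco4a1 (0.92 and 1.31). They were smaller for Sulf2 (1.34 and 1.40). Mctp1 was below background on all 3 KO eTreg arrays, so its values there have no order. For Scp2 (1.28 and 0.90) and Sgk3 (1.11 and 0.19) KO eTreg 1 lay between the other KO eTregs. The part of the macrophage signal in the levels of the 8 genes was not tested.

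**Figure D3:**
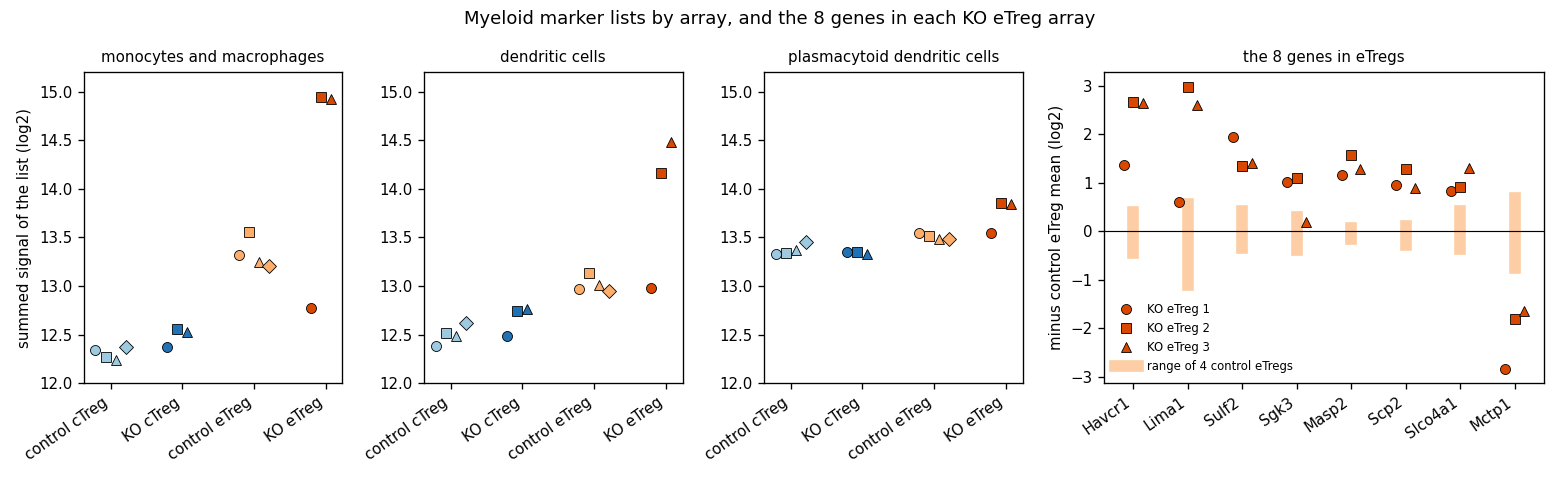
The left 3 panels give the summed signal of each marker list (y axis, log2) on each array by group (x axis), with symbols for replicate numbers. The right panel gives each KO eTreg array minus the control eTreg mean (y axis, log2) for the 8 genes, with the range of the control eTregs as bars: KO eTreg 1 (circles) is at 12.78 for monocytes and macrophages, and KO eTreg 2 (squares) and KO eTreg 3 (triangles) are at 14.95 and 14.93.

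Dendritic cell genes were high on KO eTreg 2 and KO eTreg 3, and on KO eTreg 1 their sum was within the control range. The summed signal of 12 of them was 12.98, 14.16 and 14.48 in KO eTregs and 12.95 to 13.13 in control eTregs, and 7 of the 12 were called higher in KO eTregs. The first 3 markers, Zbtb46, Flt3 and Clec9a, were not called and differed by -0.04, -0.10 and -0.08. Siglech, a lectin receptor of plasmacytoid dendritic cells, read 9.78, 10.79 and 10.65 in KO eTregs and 8.37 to 8.86 in control eTregs, a difference of 1.78 with an adjusted P of 0.000483 (limma). A list of 12 plasmacytoid dendritic cell genes, chosen after these values were seen, summed to 13.55, 13.86 and 13.84 in KO eTregs and to 13.48 to 13.54 in control eTregs. Of these 12 genes 4, Siglech, Klk1, Tcf4 and Ly6d, were above all control eTregs on each KO eTreg array. Over all transcript clusters the eTreg groups did not overlap for 6.85%, in either direction. Ccr9 and Cd300c differed by 0.57 and 0.63 with overlap, and Irf8 and Cox6a2 by 0.06 and 0.04. Runx2, Pacsin1, Smim5 and Spib went the other way, at -0.15, -0.12, -0.11 and -0.002. The part of dendritic cell RNA in the levels of the 8 genes was not tested.

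Markers of other known sources of the 8 genes were read in the same way. B cells are a known source of Havcr1. The summed signal of 10 B cell genes was 11.94, 12.09 and 12.16 in KO eTregs and 11.83 to 11.97 in control eTregs. KO eTreg 2 and KO eTreg 3 thus stood above all control eTregs, while none of the 10 genes was called. The B cell markers Ms4a1 and Cd79a differed by -0.23 and 0.40. Epithelial cells are a source of Lima1 and Havcr1, and their 7 genes summed to 11.38 to 11.48 in KO eTregs and 11.34 to 11.66 in control eTregs, with none called. For Masp2, 6 hepatocyte genes, also chosen after the values were seen, summed to 10.94 to 11.23 in KO eTregs, 10.98 to 11.40 in control eTregs, 11.05 to 11.45 in KO cTregs and 11.11 to 11.25 in control cTregs. The part of hepatocyte RNA in the level of Masp2 was not tested. Of the remaining lists, 1 of 10 neutrophil genes (Cxcr2 at 0.72), 2 of 8 plasma cell genes (Jchain at 1.41 and Mzb1 at 0.82) and 2 of 10 genes of CD8 T and NK cells (Klrd1 at 1.17 and Eomes at 0.91) were called higher in KO eTregs. None was called lower, and none of 9 erythroid, 8 megakaryocyte and platelet or 10 endothelial and stromal genes was called. The plasma cell list had a median difference of -0.05. Its genes Sdc1, Tnfrsf17, Derl3 and Prdm1 differed by -0.33, -0.10, -0.12 and -0.21, and Xbp1 and Irf4 by 0.005 and 0.33. The list summed to 12.26, 12.81 and 13.05 in KO eTregs and 12.45 to 12.76 in control eTregs. KO eTreg 1 was thus below all control eTregs and the other KO eTregs above them.

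The families and pathways of the 8 genes were read through 9 lists, with the 8 genes themselves left out. The lists hold 120 genes. In eTregs 7 were called higher and 2 lower in KO at the study threshold, or 7.5% beside the 2.72% over all transcript clusters. None passed with adjusted P. An unadjusted P under 0.05 in limma was found for 21 of the 120, a larger share than the 8.03% of all transcript clusters. The eTreg groups did not overlap for 12 of the 120, beside 6.85% of all. The median difference of the 120 was 0.02 beside -0.02 over all transcript clusters. In cTregs none of the 120 was called, and 2 had an unadjusted P under 0.05 in limma, against 4.01% of all transcript clusters.

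In the TIM family 2 of 3 measured relatives of Havcr1 were called higher in KO eTregs. Havcr2 (TIM-3), an inhibitory receptor of T cells and myeloid cells, read 7.58, 8.13 and 7.44 in KO eTregs and 6.34, 7.10, 7.19 and 7.35 in control eTregs, a difference of 0.72. Timd4 (TIM-4), the phosphatidylserine receptor of macrophages, read 7.83, 10.02 and 10.24 in KO eTregs and 7.97, 8.02, 8.03 and 7.88 in control eTregs. KO eTreg 1 thus lay above the control range for Havcr2 and below it for Timd4.

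Among 13 genes of heparan sulfate modification, Sulf1, the other extracellular sulfatase, was called at 0.74 and Hpse, which cleaves heparan sulfate chains, at 0.66. Sulf1 was high on a single array, at 8.76 on KO eTreg 2 beside 6.71 and 7.10 on the other KO eTregs. Slco2b1 (1.34) was the 1 of 9 other organic anion transporters that was called, and the complement component C3 (1.59) the 1 of 11 genes of the lectin pathway list. None of the 17 peroxisomal genes, the 11 C2-domain genes or the 12 genes of the SGK pathway was called.

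Of 29 genes of PI3P-binding proteins, the class that Sgk3 belongs to, Wdfy3, an adaptor of selective autophagy, was called at 0.94 and Eea1, an early endosome tether, at -0.60. Wdfy3 read 7.43, 8.34 and 8.29 in KO eTregs against 6.83 to 7.30 in control eTregs, and Eea1 read 10.56, 11.12 and 11.36 against 11.43 to 11.76. Neither gene had overlapping groups. Nebl, 1 of 15 actin-binding LIM proteins, was called at -0.64, with overlapping groups. Of the 7 related genes called higher, KO eTreg 1 was above the control eTreg range for 2 (Havcr2 and Wdfy3), within it for 3 and below it for 2.

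**Figure D4:**
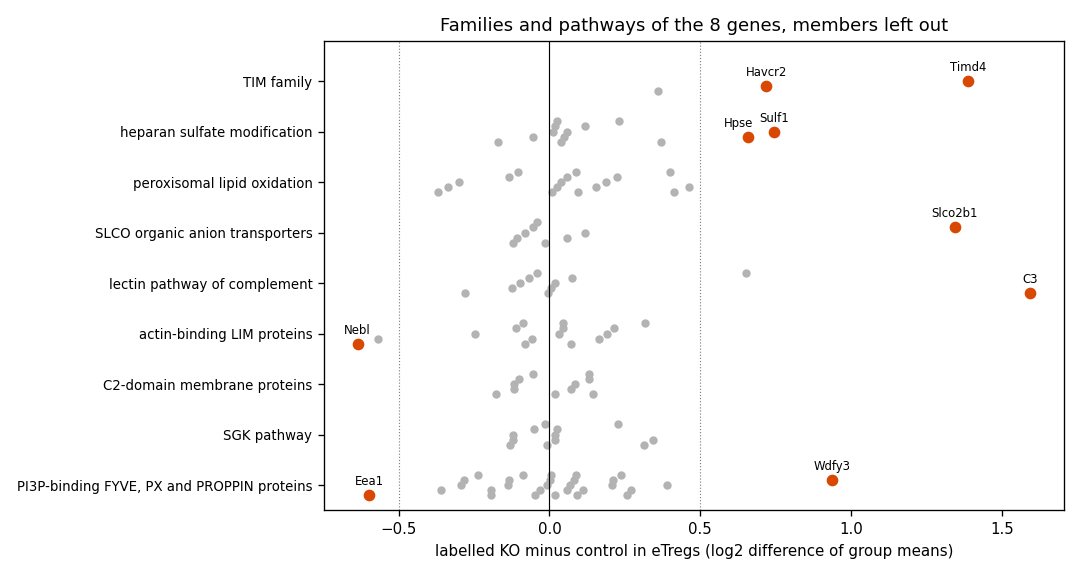
KO minus control difference in eTregs (x axis, log2) of the 120 related genes by list (y axis), 1 point per gene, with the 9 genes called at the study threshold coloured and named and dotted lines at 0.5 either side of 0. Most lists centre near 0, and the called genes with the largest differences are C3 (1.59), Timd4 (1.39) and Slco2b1 (1.34).

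For each of the 8 genes the transcript clusters with the most similar signal over the 14 arrays were found by Pearson's r, given without a p-value because the arrays share groups. For Havcr1 these were Siglech (r = 0.94) and Arhgap6 (r = 0.94), and over the 11 arrays without KO eTregs r was 0.06 and 0.21. For Lima1 they were Tns3 (0.96, a focal adhesion protein) and Fabp5 (0.93, a fatty acid carrier), with 0.85 and 0.77 over the 11 arrays. For Sgk3 they were Atp1b1 (0.92) and 1700025G04Rik (0.91), with 0.94 and 0.93 without KO eTregs. For Sulf2 they were Vps37c (0.90) and Vmn1r160 (0.88), with 0.88 and 0.85 over the 11 arrays.

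For Masp2 the closest were H2-M3 (0.89) and Slfn8 (0.88), with 0.84 and 0.83 without KO eTregs. The mean of Slfn8 was 11.79 in KO eTregs, 9.60 in control eTregs, 11.77 in KO cTregs and 9.31 in control cTregs, the same high and low groups as for Masp2. For Scp2 they were Srbd1 (0.90) and Parp12 (0.87), with 0.75 and 0.68 over the 11 arrays. For Slco4a1 they were Aldh2 (0.88) and Vat1 (0.87), with 0.55 and 0.56. For Mctp1 both were clusters of Gm3594 (0.89) with identical values, at 0.92 over the 11 arrays.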

How the data were processed

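Clariom S mouse arrays were hybridised with RNA labelled by the WT Plus assay. The deposited values are log2 signals that the authors made by RMA (background correction, quantile normalization and probe summary) in Affymetrix Expression Console 1.1, per the labels. Of 28846 entries, 6640 control probe sets and 3 unnamed ones were left out. The number of arrays limits the precision. Groups and replicate numbers came from the sample titles. R 4.3.3 and limma 3.58.1 (lmFit, eBayes) fitted 4 group means with 10 residual and 5.65 prior degrees of freedom, and P values were adjusted by Benjamini-Hochberg. The calculation was tested on simulated data. The study's text gives the replicates as chimera mice, in the numbers of arrays per group, and does not say whether same-numbered cTreg and eTreg arrays came from 1 mouse. The 8 genes, the 9 related and 11 marker lists and the tests were chosen with earlier results of these data known, and the plasmacytoid and hepatocyte lists after the values were seen. Named genes were the 8 genes, Atg14, the 2 most similar transcript clusters to each, related genes past the study threshold and the leading markers of each list, of which 1 is not reported here. Of the marker genes, 1 (Ighm) had no row. Promoter windows came from RefSeq (GRCm38.p6). Figures were drawn with matplotlib 3.10.9. Alternatives covered the arrays used, replicate blocks, scaling, filters on dim signal, array weights, variance prior and rows per symbol.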

Additional observations from a re-analysis of the deposited data

Results flagged for a closer look

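In groups of 4 arrays, 1 array stood apart from its fellows by Dixon's ratio in 3 cases, where the gap to the nearest array divided by the range of the group exceeded the 95% critical value for 4 arrays. Chance gives such a case in about 5% of groups, and 40 groups were looked at. Scp2 read 7.98 on control eTreg 4, below the other control eTregs at 8.32 to 8.37 (ratio 0.872). The summed signal of the B cell list was 11.97 on control eTreg 1, above the other control eTregs (ratio 0.833). The summed signal of the plasma cell list was 11.87 on control cTreg 1, below the other control cTregs (ratio 0.834).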

How the results depend on the processing

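The counts of calls and the differences of the 8 genes were recomputed under 24 to 26 other settings, fewer where a filter or a subset of arrays left no value, and 1 of these, chosen after seeing the data, left out KO eTreg 2 and KO eTreg 3. Marker lists, exact tests and correlations were not recomputed. No called result changed direction, and the eTreg differences of the 8 genes kept their direction in 202 of 202 values. Masp2 in cTregs kept its study-threshold call wherever it was tested, with differences of 0.91 to 1.46 and limma adjusted P of 0.00400, when KO cTreg 1 was left out, to 0.924, when KO cTreg 2 was, and 0.0202 with array weights. The number of the 8 genes called in cTregs was 1 to 2 without 1 array, 2 without KO cTreg 3 or control cTreg 3 (Sulf2 added) or control cTreg 2 (Mctp1 added), and 0 with the filter at the 60th percentile of mean signal, which kept Sulf2 and Sgk3 alone of the 8. Leaving out 1 array gave 125 to 314 cTreg transcript clusters called against 128, 3 to 10 with adjusted P against 10, and 0 to 2 related genes in cTregs against 0. It gave 564 to 1104 eTreg transcript clusters called against 604 and 10 to 452 with adjusted P against 26, the highest counts without KO eTreg 1, and 7 to 10 related genes in eTregs against 9. The filter at the 60th percentile gave 49 cTreg and 186 eTreg calls, 14 eTreg calls with adjusted P and 1 related gene in eTregs. A fit of the 2 eTreg groups alone gave 10 calls with adjusted P and array weights gave 435, against 26. Without KO eTreg 2 and KO eTreg 3 there were 1144 eTreg calls, and the eTreg differences were 1.36 for Havcr1, 1.95 for Sulf2 and 0.61 for Lima1, where KO eTreg 1 is assumed to vary like the other groups. Pairing by replicate number was checked by correlating the deviations of same-numbered cTreg and eTreg arrays from their group means. Here r was 0.04 to 0.30, and 6 of 7 arrays matched their own number best. Not every pair exceeded 0.1, so the numbers were not taken as pairs. Same-numbered KO and control arrays, which come from different chimeras, correlated at 0.08 to 0.26 in cTregs and 0.01 to 0.29 in eTregs. The check therefore cannot tell a shared mouse from another pattern that goes with the number. With the number as a replicate block, 6 cTreg transcript clusters were called with adjusted P against 10, and Masp2 differed by 1.14 in cTregs with a limma adjusted P of 0.167. Slco4a1 and the KO arrays of Mctp1 lie at background, which limits what their differences can show.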
